A study of Mus musculus with 8 samples.

Results

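The Mir290 to Mir295 cluster is a row of miRNA genes on mouse chromosome 7 whose products are among the most abundant miRNAs of pluripotent mouse cells. Its members here were Mir290a, Mir291a, Mir292, Mir292b, Mir291b, Mir293, Mir294 and Mir295, chosen by name, and they are 8 of the 2201 miRNA genes in the GENCODE M21 annotation. A read was counted for a member when its sequence was 20 to 24 nt long and was found exactly, on the sense strand, in the GENCODE transcript of that member.

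The hairpins of the cluster are cut from a shared primary transcript by Drosha and then by Dicer. Each hairpin can give a strand from either side of its stem, called the 5p and the 3p arm, and the strand held by an Argonaute protein represses the mRNAs that pair with its seed near the 5′ end. The cluster is known for high levels in embryonic stem cells and the early embryo, for promoting the passage of these cells into S phase, and for its part in the survival of early germ cells.

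Small RNA was sequenced from 4 groups of male cells with 2 libraries each, 8 in all. Primordial germ cells (mPGCs) came from microdissected genital ridges at embryonic stages E12.5, E13.5 or E15.5, whereas mPGC-like cells (mPGCLCs) came from day 6 embryoid bodies made from SGET embryonic stem cells. The mPGCs carried the GOF18 reporter, in which a fragment of the Pou5f1 gene drives EGFP. For them the labels give the strain C57BL/6J and a sort on SSEA1 and CD61, whereas the methods of the study give a mixed FVB/C57BL/6J background and a sort on EGFP. Each mPGC replicate pooled a pair of embryos, with a different litter for each replicate. SGET cells are XY, of the strain B6CBA/129, and carry Stella-GFP and Esg1-tdTomato. They were induced with BMP4, LIF, SCF, BMP8 and EGF and sorted as GFP-positive and tdTomato-negative. The SGET libraries were not stated to come from separate differentiations, so p-values that involve them measure the spread between these samples, which may be technical.

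Values are given for replicate 1 and then replicate 2. The E12.5 libraries held 7447873 and 13614516 reads, and the E13.5 libraries 12043363 and 19734948. For the E15.5 libraries the totals were 13601492 and 26552524, and in SGET mPGCLCs 10209580 and 9526338. A share was expressed either as a percent of all reads of a library or as a percent of its miRNA reads, meaning all 20 to 24 nt reads that matched any GENCODE miRNA transcript exactly on the sense strand. Intervals are exact Clopper-Pearson 95% intervals. They cover counting error only, because PCR copies are not independent molecules and the random adapter bases were trimmed without use as molecular identifiers. Adapter ligation favours some sequences over others, so an order between arms is an order of read counts. The libraries are bulk samples, in which fewer cells of a type and less RNA per cell cannot be told apart.

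The members lay within 2216 bp of chromosome 7 in GRCm38, from 3218626 to 3220841. Along the plus strand came Mir290a (3218626 to 3218708), Mir291a (3218919 to 3219000), Mir292 (3219189 to 3219270), Mir291b (3219482 to 3219560), Mir293 (3220343 to 3220422), Mir294 (3220641 to 3220724) and Mir295 (3220773 to 3220841). Mir292b (3219198 to 3219259) was annotated on the minus strand, inside the span of Mir292. Mir290b (3218638 to 3218695), likewise on the minus strand and inside Mir290a, was not among the members chosen. All members other than Mir290a, 7 of 8, lay in a UTR interval of Nlrp12 that is annotated on the minus strand from 3218784 to 3222475. Reads were found for 7 of the 8 members. Mir292b had 0 reads in all 8 libraries. By counting error alone, the upper limit was 4.95e-05% of all reads in the shallowest of them. Apart from Mir292b, whose antisense strand is that of Mir292, 0 reads of 20 to 24 nt were antisense to a member.

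**Figure D1:**
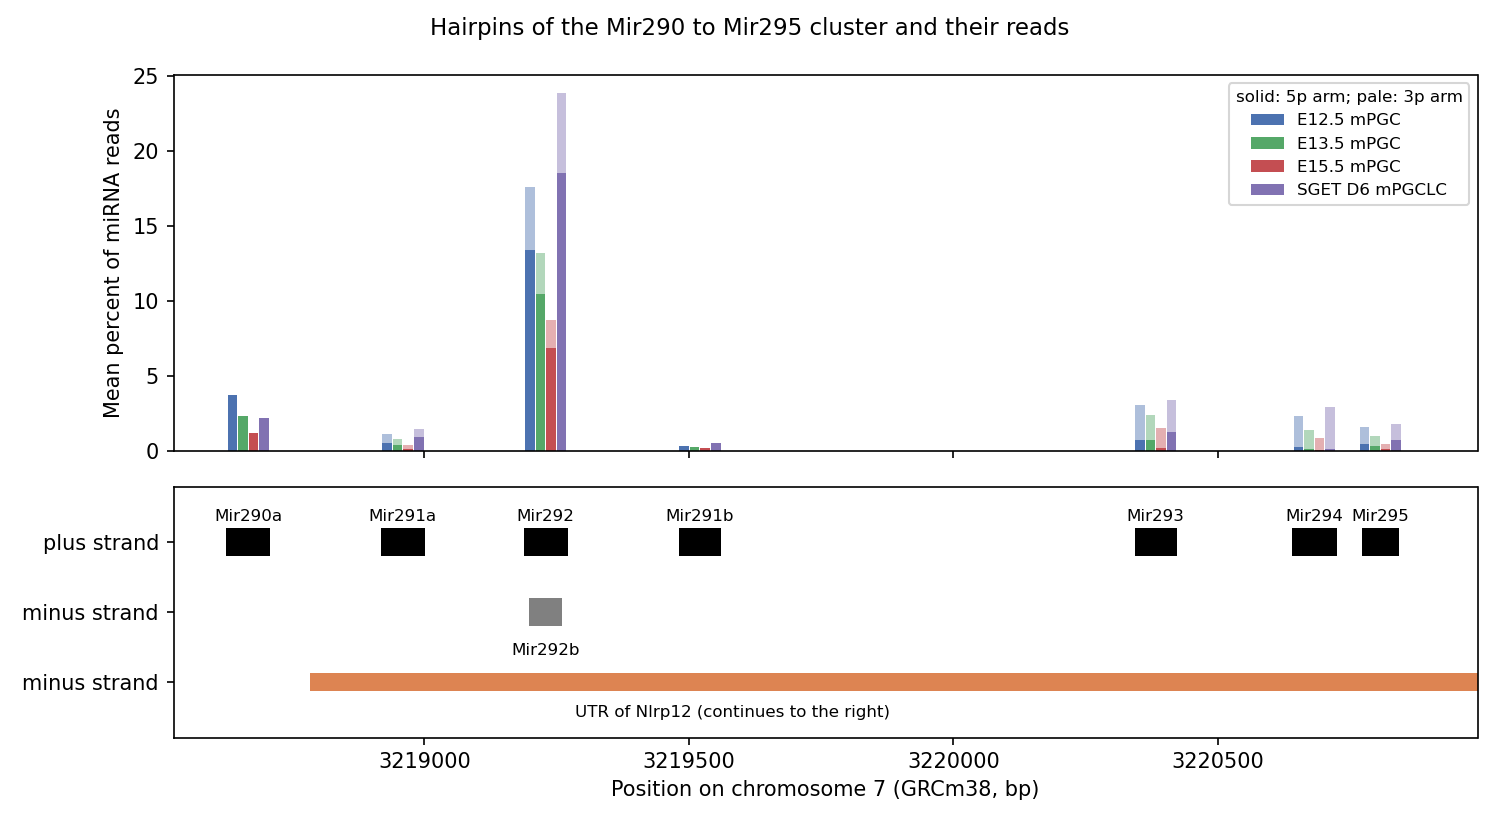
Upper panel: mean percent of miRNA reads (n = 2 libraries) of each hairpin, drawn at its position on chromosome 7, with the 5p arm solid and the 3p arm pale for the 4 groups. Lower panel: the annotated hairpins and the UTR of Nlrp12. Mir292 carried the highest bar in each group, from 8.77% in E15.5 mPGCs to 23.9% in SGET mPGCLCs.

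The mature strands are shown because the members fall into families by seed, which is taken as bases 2 to 8 and printed in capitals. The sequences are those of RefSeq, build GRCm38.p6. CUCAAAC was shared by 3 5p arms.
Mir290a-5p: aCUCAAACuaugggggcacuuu
Mir292-5p: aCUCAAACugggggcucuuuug
Mir293-5p: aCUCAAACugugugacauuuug
AAGUGCU, the seed for which the cluster is best known, was shared by 3 3p arms.
Mir291a-3p: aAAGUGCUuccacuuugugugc
Mir294-3p: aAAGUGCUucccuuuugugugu
Mir295-3p: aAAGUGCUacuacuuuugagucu
AUCAAAG was shared by both Mir291 5p arms.
Mir291a-5p: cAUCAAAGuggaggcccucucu
Mir291b-5p: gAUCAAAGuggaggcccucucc
The other strands with reads whose sequence is given by RefSeq are shown because none printed here shares their seed.
Mir294-5p: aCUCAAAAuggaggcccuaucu
Mir295-5p: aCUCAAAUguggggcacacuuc
Mir290a-3p: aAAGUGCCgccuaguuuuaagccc
Mir291b-3p: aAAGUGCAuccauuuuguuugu
Mir293-3p: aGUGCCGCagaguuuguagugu
The remaining arm with many reads was Mir292-3p.

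The cluster made up the largest part of the miRNA reads in SGET mPGCLCs and a smaller part at each later stage of the mPGCs. At E12.5 it took 30.4% of miRNA reads in replicate 1 (95% interval 30.3 to 30.4) and 29.6% in replicate 2 (29.6 to 29.7). The E13.5 libraries gave 21.8% (21.7 to 21.8) and 21.3% (21.3 to 21.3). At E15.5 the values were 14.3% (14.1 to 14.4) and 12.9% (12.8 to 12.96). Both E15.5 libraries were the lowest of the 8, and replicates lay closer to each other than to any library of another group. SGET mPGCLCs gave 36.0% (35.96 to 36.1) and 36.7% (36.6 to 36.8). The group means were 36.4% ± 0.473 in SGET mPGCLCs, 29.98% ± 0.527 in E12.5 mPGCs, 21.5% ± 0.317 in E13.5 mPGCs and 13.6% ± 0.979 in E15.5 mPGCs (mean ± SD, n = 2), and each neighbouring pair in this order differed by more than its spread. With 2 libraries against 2 no permutation test can reach a low p, and none was computed for the sum over members.

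As a part of all reads, the cluster separated E15.5 from the other groups. It held 3.89% (95% interval 3.88 to 3.91) and 6.10% (6.09 to 6.11) of all reads in E12.5 mPGCs. The E13.5 libraries had 3.17% (3.16 to 3.18) and 4.53% (4.52 to 4.54). At E15.5 these shares were 0.316% (0.313 to 0.319) and 0.243% (0.241 to 0.245), from 42996 and 64590 cluster reads, below every library of the other groups. In SGET mPGCLCs they were 5.77% (5.76 to 5.78) and 9.11% (9.10 to 9.13). The means were 7.44% ± 2.36, 4.996% ± 1.56, 3.85% ± 0.960 and 0.280% ± 0.0515 in SGET mPGCLCs, in E12.5 mPGCs, in E13.5 mPGCs and in E15.5 mPGCs (mean ± SD, n = 2). SGET mPGCLCs and E12.5 mPGCs overlapped, as did E12.5 and E13.5 mPGCs.

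The total of all miRNA reads was also lowest at E15.5. These reads were 12.8% and 20.6% of all reads in E12.5 mPGCs, 14.6% and 21.3% in E13.5 mPGCs, 2.22% and 1.89% in E15.5 mPGCs, and 16.0% and 24.8% in SGET mPGCLCs. Replicate 2 was the higher library in 3 groups, and the E15.5 libraries were the lowest 2 of the 8. The part of other small RNAs in the share of all reads was not tested.

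**Figure D2:**
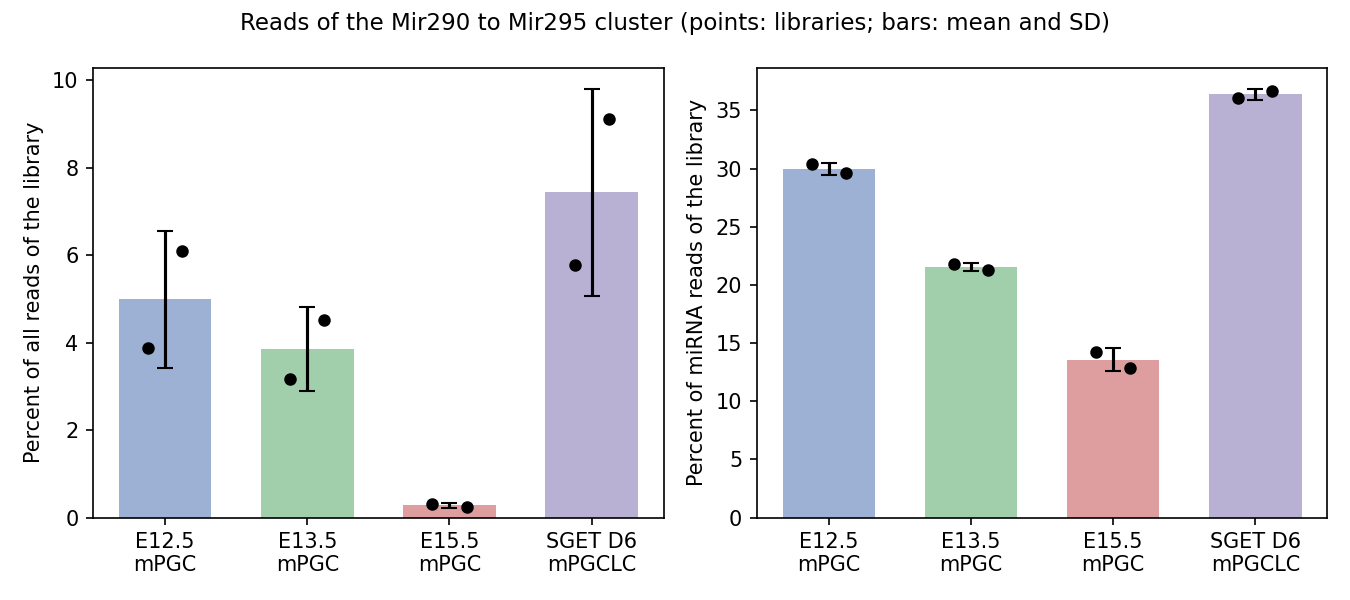
Reads of the cluster as a percent of all reads (left) and of miRNA reads (right) in each group. Points are the 8 libraries, bars the mean and error bars the SD (n = 2). On the right the groups do not overlap, with 36.4% in SGET mPGCLCs and 13.6% in E15.5 mPGCs.

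Mir292 supplied more than any other member to the cluster in each of the 8 libraries. Its reads were 60.3% and 57.3% of the cluster reads in E12.5 mPGCs, 63.9% and 59.0% in E13.5 mPGCs, 65.6% and 63.6% in E15.5 mPGCs, and 64.1% and 67.1% in SGET mPGCLCs. The mean was 58.8% ± 2.12 in E12.5 mPGCs and 65.6% ± 2.15 in SGET mPGCLCs (mean ± SD, n = 2), and these groups did not overlap. Mir290a, the first hairpin of the cluster, gave 10.1% and 15.1% in E12.5 mPGCs, 9.07% and 12.7% in E13.5 mPGCs, 7.34% and 10.9% in E15.5 mPGCs, and 4.97% and 7.12% in SGET mPGCLCs. Both SGET libraries were the lowest 2 of the 8 for this gene. The means of Mir293 lay between 9.49% and 11.8% of cluster reads, those of Mir294 between 6.48% and 8.12%, and those of Mir295 between 3.56% and 5.32%. Mir291a gave means of 2.83% to 4.13% and Mir291b of 1.22% to 1.55%. When Mir292 was left out, a choice made after seeing the data, the other members still made up 14.8% and 15.2% of the other miRNA reads in E12.5 mPGCs, 9.13% and 9.99% in E13.5 mPGCs, 5.40% and 5.11% in E15.5 mPGCs, and 16.8% and 16.0% in SGET mPGCLCs, again with no overlap between groups.

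Differences between groups were tested for each arm with edgeR's quasi-likelihood test, in a single fit of all 8 libraries. An arm was called when its p, adjusted over all arms by Benjamini-Hochberg, was under 0.05. The test gives no standard error. Those printed are the absolute log2 fold change divided by the square root of the F statistic of the test. Of 801 arms with a read, 489 passed a filter on low counts, and 15 of these belonged to the cluster. They were all 14 single-gene arms with a read and a joint arm for reads that match both Mir291a-5p and Mir291b-5p. The 2 arms of Mir292b had no read and were not tested. The total of all reads served as the library size, as in the normalization of the study, and the total of miRNA reads is given beside it throughout, because it moved the median over all arms by more than 0.1 on the log2 scale. The 4 comparisons share groups and are not independent of each other.

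The comparison of E13.5 with E12.5 mPGCs covers the stage at which male germ cells enter sex-specific differentiation. The part of miRNA reads taken by the cluster in E13.5 mPGCs was 0.718 ± 0.0165 times that in E12.5 mPGCs (ratio of means ± propagated SD, n = 2 and 2). Most member arms were lower in both E13.5 libraries, and Mir293-5p was the exception among the main ones. Of the 15 cluster arms, 12 were lower with no overlap between the groups and 0 were higher, where 17.8% of all arms were lower in this way and 18.2% higher.

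Mir292-5p, the most-read arm of the cluster in every library, made up 14.4% and 12.3% of miRNA reads in E12.5 mPGCs and 11.1% and 9.80% in E13.5 mPGCs. It ranked first among all arms in both E12.5 libraries and second, behind Mir92-1-3p, in both E13.5 libraries. Mir290a-5p made up 3.08% and 4.46% in E12.5 mPGCs and 1.97% and 2.69% in E13.5 mPGCs. Mir294-3p, which carries the AAGUGCU seed, made up 2.57% and 1.62% in E12.5 mPGCs and 1.29% and 1.16% in E13.5 mPGCs. For each of these arms both E13.5 libraries lay below both E12.5 libraries. Mir293-5p, in contrast, made up 0.752% and 0.719% in E12.5 mPGCs and 0.777% and 0.725% in E13.5 mPGCs, and its groups overlapped. The mean of Mir293-5p in E13.5 mPGCs was 1.02 ± 0.0601 times that in E12.5 mPGCs.

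No cluster arm was called by edgeR in this comparison, with 0 of 15 at an unadjusted p under 0.05 (5 of all 489 arms). DESeq2 also called 0, with 0 under that p (32 of all 489 arms), while it called 7 of all arms higher and 1 lower. Over all arms edgeR called 0% in either direction. With miRNA reads as the library size edgeR called 0 cluster arms, with 3 of 15 at an unadjusted p under 0.05 (22 of all 489 arms), while over all arms 4 were higher (0.818%) and 0 were lower (0%). Without E13.5 replicate 2, 2 of all arms were lower with all reads as the library size. Mir292-5p had a log2 fold change of -0.25 (standard error 0.40, edgeR adjusted p = 1.0). The log2 fold change of Mir290a-5p was -0.61 (standard error 0.58, edgeR adjusted p = 1.0). The median over the cluster arms was -0.47 against 0.07 over all arms, and -0.60 against -0.04 with miRNA reads as the library size. Of the 15 values, 13 were below 0 in both fits, but without E12.5 replicate 2 the cluster median was 0.00, against 0.81 over all arms, and 9 were above 0. Without that library Mir290a-5p had 0.12 and Mir292-5p had 0.00. Without E13.5 replicate 2 the medians were -0.81 for the cluster and -0.82 for all arms, so that the cluster no longer lay below.

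Between E13.5 and E15.5 male germ cells leave the cell cycle, and most arms of the cluster fell on the scale of all reads. Its part of all reads in E15.5 mPGCs was 0.0726 ± 0.0225 times that in E13.5 mPGCs, and its part of miRNA reads was 0.630 ± 0.0464 times (ratios of means ± propagated SD, n = 2 and 2). The total of miRNA reads was 0.115 ± 0.0329 times that in E13.5 mPGCs. On the scale of all reads 12 of the 15 cluster arms fell by edgeR, among 17.6% of all arms called lower and 0% called higher. With miRNA reads as the library size edgeR called 0 of the 15 in either direction, with 5 at an unadjusted p under 0.05 (37 of all 489 arms), while over all arms 0.204% were called higher and 0% lower.

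Mir292-5p made up 1.62% and 2.08% of all reads in E13.5 mPGCs and 0.163% and 0.122% in E15.5 mPGCs. As a part of miRNA reads it held 7.34% and 6.47% in E15.5 mPGCs, below the 11.1% and 9.80% of the E13.5 libraries. Mir293-5p held 0.271% and 0.233% of miRNA reads in E15.5 mPGCs, and its ratio to E13.5 was 0.336 ± 0.0394. This was the lowest ratio of the 12 most-read member arms, whereas Mir293-3p from the same hairpin gave 0.795 ± 0.241 and overlapped between the groups. Mir294-3p made up 1.12% and 0.492% in E15.5 mPGCs, both below the E13.5 libraries but with replicate 2 far under replicate 1. Of the 15 arms, 12 were lower in E15.5 mPGCs with no overlap as parts of miRNA reads and 0 were higher, where 20.7% of all arms were lower in this way and 11.2% higher.

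The fall of Mir292-5p was -3.70 on the log2 scale (standard error 0.45, edgeR adjusted p = 2.94e-05). Mir293-5p fell the most of the called arms, with -4.68 (standard error 0.72, edgeR adjusted p = 0.000266). Mir291b-5p had the smallest called fall, -3.45 (standard error 0.81, edgeR adjusted p = 0.00412). Both libraries of E15.5 were below both of E13.5 in their part of all reads for each of these arms. The arms not called were Mir290a-3p, Mir291b-3p and the joint arm. The cluster median was -4.14 against -3.54 over all arms, and -0.93 against -0.39 with miRNA reads as the library size. Without E15.5 replicate 1 the order turned, with -4.37 against -4.73, and without E13.5 replicate 2 the medians were -3.53 and -1.19.

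DESeq2, which scales by the median ratio over arms, called 0 of the 15 cluster arms in this comparison. It had 0 of them at an unadjusted p under 0.05 (61 of all 489 arms), and 13 of their log2 fold changes were below 0. Of all arms DESeq2 called 12 higher and 3 lower. Over all arms edgeR called 86 lower and 0 higher with all reads as the library size (57 lower without E15.5 replicate 2, and 2 higher without E13.5 replicate 2), and 0 lower and 1 higher with miRNA reads. The same 12 cluster arms were called when any of the 8 libraries was left out. For Mir291a-3p, with 1123 and 230 reads in E15.5 mPGCs, the log2 fold change was -4.14, and -6.54 without E15.5 replicate 1 or -3.29 without replicate 2. Mir294-5p, with 79 and 737 reads, had -4.18, and -3.45 or -5.71 without the same libraries. Without E15.5 replicate 1, Mir294-3p moved from -3.67 to -4.55 and Mir295-5p from -4.56 to -5.21.

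**Figure D3:**
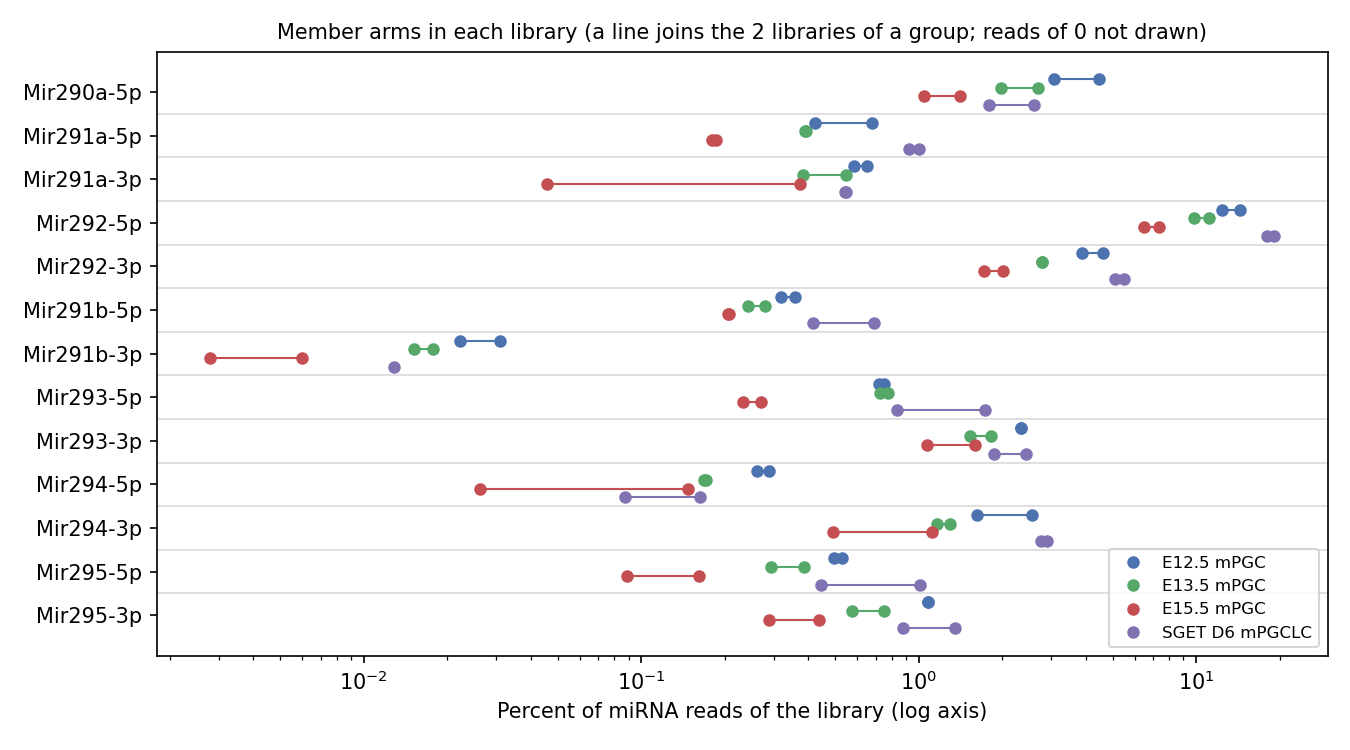
Percent of miRNA reads (log axis) of 13 member arms in each of the 8 libraries. Points of a group are joined by a line, and libraries with 0 reads of an arm are not drawn. Mir292-5p lies to the right of the other arms in every group, between 6.47% and 19.1%, and the line of Mir291a-3p in E15.5 mPGCs is the longest.

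SGET mPGCLCs were set beside E12.5 mPGCs, since these are the youngest germ cells in the series and mPGCLCs are a model of earlier ones. The cluster made up 1.21 ± 0.0265 times as much of the miRNA reads in SGET mPGCLCs as in E12.5 mPGCs (ratio of means ± propagated SD, n = 2 and 2). As parts of miRNA reads, 6 of the 15 arms were higher in both SGET libraries than in both E12.5 libraries, where 22.5% of all arms were higher in this way, and 4 were lower, where 31.5% of all arms were lower. The 6 were Mir291a-5p, Mir291b-5p, both arms of Mir292, Mir293-5p and Mir294-3p, and the 4 were Mir290a-5p, Mir291a-3p, Mir291b-3p and Mir294-5p.

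Mir292-5p made up 17.98% and 19.1% of miRNA reads in SGET mPGCLCs, above the 14.4% and 12.3% in E12.5 mPGCs, and was the most-read of all arms in these 4 libraries. Its ratio was 1.39 ± 0.163. Mir290a-5p, which shares its seed, made up 1.79% and 2.59% in SGET mPGCLCs, below the 3.08% and 4.46% in E12.5 mPGCs, with a ratio of 0.581 ± 0.213. Arms of a single hairpin also parted. Mir291a-5p was at 0.922% and 0.999% in SGET mPGCLCs and 0.424% and 0.681% in E12.5 mPGCs, while Mir291a-3p was at 0.545% and 0.543% against 0.652% and 0.585%. Neither arm of Mir291a overlapped between the groups, in opposite directions.

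In the test, edgeR called 0 of the 15 arms in either direction, with 0 at an unadjusted p under 0.05 (81 of all 489 arms). Over all arms edgeR called 1.84% higher and 3.27% lower. DESeq2 called 0 cluster arms with 0 under that p (146 of all 489 arms), beside 34 of all arms higher and 65 lower. With miRNA reads as the library size edgeR again called 0, with 2 at an unadjusted p under 0.05 (102 of all 489 arms), beside 2.86% of all arms higher and 8.18% lower. These shares were 9 and 16 arms with all reads as the library size and 14 and 40 with miRNA reads. The count of 9 became 5 without E12.5 replicate 1, 4 without SGET replicate 2 and 15 without either E13.5 replicate, and the count of 16 became 9 without SGET replicate 1. Mir292-5p had a log2 fold change of 0.80 (standard error 0.41, edgeR adjusted p = 0.336) and Mir290a-5p of -0.50 (standard error 0.58, edgeR adjusted p = 0.655). Without SGET replicate 2 the value of Mir292-5p was 0.39, and without SGET replicate 1 it was 1.11. Without E12.5 replicate 2 the value of Mir290a-5p was 0.24. The cluster median was 0.51 against -0.21 over all arms, and 0.24 against -0.52 with miRNA reads as the library size. It was 0.00 against -1.08 over all arms without SGET replicate 2, and 0.10 against -0.37 without E12.5 replicate 1. Without E12.5 replicate 2 the medians were 0.997 and 0.04, and without SGET replicate 1 they were 0.76 and -0.56.

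Against E13.5 mPGCs the cluster was higher in SGET mPGCLCs on both scales. Its part of miRNA reads was 1.69 ± 0.0332 times and its part of all reads 1.93 ± 0.780 times that in E13.5 mPGCs (ratios of means ± propagated SD, n = 2 and 2), with no overlap of the groups in either. As parts of miRNA reads, 9 of the 15 arms were higher in both SGET libraries, where 22.9% of all arms were higher in this way, and 2 were lower, where 29.2% of all arms were lower. The 2 lower arms were the minor strands Mir291b-3p and Mir294-5p. Mir294-3p made up 2.75% and 2.91% of miRNA reads in SGET mPGCLCs against 1.29% and 1.16% in E13.5 mPGCs, a ratio of 2.31 ± 0.197. Both SGET libraries were above both E13.5 libraries for this arm.

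Mir292-5p stood at 17.98% and 19.1% in SGET mPGCLCs against 11.1% and 9.80% in E13.5 mPGCs, a ratio of 1.77 ± 0.174. For Mir292-3p the parts of miRNA reads were 5.11% and 5.52% against 2.79% and 2.77%, a ratio of 1.91 ± 0.104. Mir291a-5p had a ratio of 2.46 ± 0.139. Mir290a-5p overlapped between the groups, with a ratio of 0.940 ± 0.319.

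With all reads as the library size edgeR called 0 of the 15 cluster arms, with 4 at an unadjusted p under 0.05 (88 of all 489 arms). Over all arms edgeR called 2.04% higher and 4.29% lower. DESeq2 called 0 cluster arms with 1 under that p (158 of 489), beside 25 of all arms higher and 73 lower. With miRNA reads as the library size edgeR called 3 cluster arms higher and 0 lower, beside 3.68% of all arms higher and 9.2% lower. Mir292-5p was higher by 0.83 on the log2 scale in that fit (standard error 0.18, edgeR adjusted p = 0.000469), and by 1.04 with all reads (standard error 0.41, edgeR adjusted p = 0.166). Over all alternatives its adjusted p ran from 0.000469 to 0.581. Mir292-3p was higher by 0.93 (standard error 0.29, edgeR adjusted p = 0.0175 with miRNA reads and 0.241 with all reads, between 0.0175 and 0.581 over the alternatives). Mir294-3p was higher by 1.21 (standard error 0.39, edgeR adjusted p = 0.0241 with miRNA reads and 0.191 with all reads, between 0.0241 and 0.581 over the alternatives). For each of these arms both SGET libraries were above both E13.5 libraries. The log2 fold change of Mir290a-5p was 0.11 (standard error 0.58, edgeR adjusted p = 0.921) and turned to -0.09 with miRNA reads, to -0.30 without E13.5 replicate 1 and to -0.59 without SGET replicate 2.

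The calls over all arms in this comparison were 10 higher and 21 lower with all reads and 18 higher and 45 lower with miRNA reads as the library size. The count of 10 became 5 without E13.5 replicate 1. The 4 cluster arms at an unadjusted p under 0.05 became 0 without E13.5 replicate 1 and 0 without SGET replicate 2. The cluster median was 0.97 against -0.28 over all arms (0.36 against -1.28 without SGET replicate 2), and 0.78 against -0.51 with miRNA reads.

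Each hairpin had its own balance of arms, which was measured as the percent of its single-gene reads that came from the 5p arm. Mir290a was read almost wholly from the 5p arm, with group means of at least 99.6%. In replicate 1 its 3p arm had 0 reads in each mPGC group and 1 read in SGET mPGCLCs, against 459 (E12.5), 181 (E13.5), 12 (E15.5) and 456 reads (SGET) in replicate 2. Mir291b gave means of 92.7% to 99.1% and Mir292 of 75.8% to 78.9%. Mir293, Mir294 and Mir295 were read mostly from the 3p arm, where Mir294 and Mir295 carry the AAGUGCU seed, except that Mir295 had 53.4% from the 5p arm in SGET replicate 1. The 5p part of Mir294 was 11.97% ± 2.67 in E12.5 mPGCs, 12.2% ± 0.636 in E13.5 mPGCs, 12.6% ± 14.6 in E15.5 mPGCs and 4.24% ± 1.89 in SGET mPGCLCs (mean ± SD, n = 2). At E15.5 its replicates stood at 2.29% and 22.98%, which spanned all other libraries.

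Mir291a had nearly even arms in E12.5 and E13.5 mPGCs. Its 5p part was 39.4% and 53.8% in E12.5 mPGCs, 41.6% and 50.6% in E13.5 mPGCs, 33.2% and 79.6% in E15.5 mPGCs, and 62.8% and 64.8% in SGET mPGCLCs. The SGET libraries lay above the E12.5 and E13.5 libraries and between the E15.5 ones. Mir293 had 5p means of 23.9% ± 0.571 in E12.5 mPGCs, 31.1% ± 3.61 in E13.5 mPGCs, 16.5% ± 5.29 in E15.5 mPGCs and 36.2% ± 7.64 in SGET mPGCLCs. For the cluster as a whole the 5p part was 65.3% ± 0.0262, 68.3% ± 0.943, 66.3% ± 2.13 and 67.1% ± 0.488 in the same order (mean ± SD, n = 2).

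The ends of the reads were compared with the mature sequences, since the 5′ end sets the seed. The deposited sequence with the highest mean share of an arm over the libraries with reads of it kept the RefSeq 5′ end in each of the 13 arms that could be compared, and in 8 of them it equalled the RefSeq sequence. For 5 arms it differed at the 3′ end, and these are shown as deposited, with T for U and the seed in capitals.
Mir290a-5p: aCTCAAACtatgggggcactttt
Mir292-5p: aCTCAAACtgggggctctttt
Mir293-5p: aCTCAAACtgtgtgacatttt
Mir291b-5p: gATCAAAGtggaggccctctc
Mir295-5p: aCTCAAATgtggggcacacttct
Those of Mir292-5p, Mir293-5p and Mir291b-5p had 21 nt, a base less than RefSeq, and those of Mir290a-5p and Mir295-5p had 23 nt, a base more. Lengths changed by library in some arms. For Mir290a-5p reads of 22 nt outnumbered those of 23 nt in both SGET libraries, and reads of 24 nt did so in E12.5 replicate 1. For Mir291b-5p reads of 22 nt outnumbered those of 21 nt in both E12.5 libraries, E13.5 replicate 2 and E15.5 replicate 2.

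The 21-nt form of Mir292-5p made up 52.8% and 52.3% of the reads of that arm in E12.5 mPGCs, 49.8% and 51.9% in E13.5 mPGCs, 56.95% and 58.5% in E15.5 mPGCs, and 59.7% and 64.4% in SGET mPGCLCs. Both SGET libraries were the highest of the 8, followed by both E15.5 libraries. Reads of 22 nt were fewest in the same SGET libraries, with 33.6% in replicate 1, below the 34.3% of E15.5 replicate 1, and 27.4% in replicate 2. For Mir290a-5p the mean length was 23.06 and 23.06 nt in E12.5 mPGCs, 23.04 and 23.09 nt in E13.5 mPGCs, 23.08 and 22.88 nt in E15.5 mPGCs, and 22.76 and 22.73 nt in SGET mPGCLCs, the shortest of the 8. Mean lengths of these arms differed by less than a base between groups.

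The 5′ end was nearly fixed in Mir292-5p, where at least 97.3% of reads in each library began at the leading position. In Mir292-3p it was not. There the leading position held 70.0% and 60.6% of reads in E12.5 mPGCs, 58.1% and 63.2% in E13.5 mPGCs, 71.6% and 34.2% in E15.5 mPGCs, and 43.4% and 46.4% in SGET mPGCLCs. Both SGET libraries were below all E12.5 and E13.5 libraries, and the E15.5 replicates lay at either extreme. Mir295-3p had its leading 5′ end in 77.2% and 72.5% of reads in E12.5 mPGCs, 69.5% and 82.3% in E13.5 mPGCs, 57.6% and 59.6% in E15.5 mPGCs, and 84.4% and 76.4% in SGET mPGCLCs, lowest in both E15.5 libraries.

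Summed by the seed that the reads carried, CUCAAAC led the cluster in every library. Reads with it were 58.7% and 57.96% of cluster reads in E12.5 mPGCs, 62.4% and 60.96% in E13.5 mPGCs, 58.99% and 62.7% in E15.5 mPGCs, and 58.8% and 59.8% in SGET mPGCLCs, so this share differed little between groups. AAGUGCU was on 12.97% and 9.92% in E12.5 mPGCs, 10.1% and 9.87% in E13.5 mPGCs, 11.9% and 5.45% in E15.5 mPGCs, and 10.9% and 11.8% in SGET mPGCLCs. Only E15.5 replicate 2 stood apart for that seed. AGUGCCG, which is AAGUGCC shifted by a base, was on 3.85% and 6.11% in E12.5 mPGCs, 5.54% and 4.78% in E13.5 mPGCs, 3.75% and 8.76% in E15.5 mPGCs, and 7.82% and 8.002% in SGET mPGCLCs. The SGET libraries were above the E12.5 and E13.5 libraries for it.

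The hexamer AAGUGC at bases 2 to 7 is common to most of the 3p arms and to the Mir302 family, another pluripotency cluster. Reads with it made up 6.92% and 6.00% of miRNA reads in E12.5 mPGCs, 4.07% and 4.01% in E13.5 mPGCs, 3.29% and 1.499% in E15.5 mPGCs, and 6.94% and 7.42% in SGET mPGCLCs. The Mir290 to Mir295 cluster supplied between 86.2% and 96.8% of these reads in the 8 libraries. Mir302 supplied 0.642% and 0.613% of them in E12.5 mPGCs, 0.424% and 0.336% in E13.5 mPGCs, 2.59% and 12.46% in E15.5 mPGCs, and 6.36% and 5.51% in SGET mPGCLCs. Its lowest parts were in E13.5 mPGCs.

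Other miRNA groups were counted to set the cluster beside them. The 4 genes of Mir302 made up 0.0558% and 0.0504% of miRNA reads in E12.5 mPGCs, 0.0186% and 0.0171% in E13.5 mPGCs, 0.0925% and 0.251% in E15.5 mPGCs, and 0.563% and 0.490% in SGET mPGCLCs. They were highest in SGET mPGCLCs, like the cluster, but lowest in E13.5 mPGCs, unlike it. Of 5 Mir302 arms tested, edgeR called 1 higher in SGET mPGCLCs than in E13.5 mPGCs and 0 in the other 3 comparisons. Over all arms 2.04% were called higher in SGET mPGCLCs than in E13.5 mPGCs and 1.84% higher than in E12.5 mPGCs. The called arm, Mir302b-3p, had 6342 and 6001 reads in SGET mPGCLCs against 220 and 330 in E13.5 mPGCs, a log2 fold change of 5.16 (standard error 1.23, edgeR adjusted p = 0.0096, between 8.92e-08 and 0.104 over the alternatives). It was not called without either E13.5 replicate or without SGET replicate 1. Against E12.5 its log2 fold change of 3.93 was not called (standard error 1.16, edgeR adjusted p = 0.0541) but was in 10 of 16 alternatives, among them miRNA reads as the library size. Mir302d-3p, the other leading arm, was higher than in E13.5 mPGCs by 5.25 on the log2 scale without passing the threshold (standard error 1.71, edgeR adjusted p = 0.0734, between 8.07e-05 and 0.369 over the alternatives, of which 3 of 16 called it). Mir367, the neighbour of Mir302, had 67 reads in E12.5 replicate 2 and at most 2 in the other libraries, and no arm of it was tested.

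The Mir17 family of dividing cells, 6 genes whose seed overlaps that of the cluster, made up 5.21% and 5.56% of miRNA reads in E12.5 mPGCs, 5.37% and 5.48% in E13.5 mPGCs, 3.49% and 2.67% in E15.5 mPGCs, and 1.25% and 2.37% in SGET mPGCLCs, where it was lowest and the cluster highest. Of its 10 arms tested, 4 fell from E13.5 to E15.5 and 1, Mir20a-5p, was lower in SGET mPGCLCs than in E13.5 mPGCs, with 0 called in the remaining comparisons. Over all arms 17.6% and 4.29% were called lower in these 2 comparisons. Its leading arm Mir93-5p fell by 4.22 on the log2 scale from E13.5 to E15.5 (standard error 0.71, edgeR adjusted p = 0.000465), with -5.26 without E15.5 replicate 1 and -3.62 without replicate 2. The let-7 family of differentiated cells, 12 genes, made up 2.82% and 2.18% in E12.5 mPGCs, 3.54% and 3.23% in E13.5 mPGCs, 4.41% and 4.13% in E15.5 mPGCs, and 1.16% and 1.62% in SGET mPGCLCs, the reverse order of the cluster. On the scale of all reads 4 of its 13 tested arms fell from E13.5 to E15.5, beside the same 17.6% of all arms, with 0 called in the other comparisons. Mirlet7e-5p, the leading one beside the joint arm of Mirlet7a-1 and Mirlet7a-2, fell by 3.37 on the log2 scale (standard error 0.70, edgeR adjusted p = 0.00172), but had 0.22 in DESeq2. With miRNA reads as the library size 0 arms of either family were called from E13.5 to E15.5, and in SGET mPGCLCs 4 arms of the Mir17 family were lower than in E12.5 mPGCs and 3 lower than in E13.5 mPGCs, and 1 let-7 arm was lower than in E13.5 mPGCs, beside 8.18% and 9.2% of all arms lower in the SGET comparisons.

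Markers of other cells were counted as well, in cells sorted on germ cell markers. Mir202 was listed here for the gonadal soma. It had 1110 and 2370 reads in E12.5 mPGCs, 3280 and 8483 in E13.5 mPGCs, and 758 and 1547 in E15.5 mPGCs. It had 0 and 0 in SGET mPGCLCs. Its part of miRNA reads went from 0.116% and 0.0845% in E12.5 mPGCs to 0.187% and 0.202% in E13.5 mPGCs and 0.251% and 0.308% in E15.5 mPGCs, the reverse order of the cluster. Of its 2 arms, Mir202-3p was called lower in both SGET comparisons with all reads as the library size. In these, against E12.5 and then E13.5 mPGCs, 3.27% and 4.29% of all arms were lower. With miRNA reads as the library size both arms were called lower there, beside 8.18% and 9.2% of all arms. Between stages 0 were called with either library size, where with all reads 17.6% of all arms were lower from E13.5 to E15.5. Reads shared with a gene outside a list were left out of it. Counted in this way, the 5 blood genes, led by Mir142-5p and, through 474 reads in E15.5 replicate 2, by Mir486-3p, made up 0.00901% and 0.0106% in E12.5 mPGCs, 0% and 0.0122% in E13.5 mPGCs, 0.0444% and 0.0982% in E15.5 mPGCs, and 6.12e-05% and 0% in SGET mPGCLCs. Mir126a of vessels, read from its 3p arm more than its 5p arm, made up 0.0136% and 0.0222% in E12.5 mPGCs, 0.0251% and 0.0283% in E13.5 mPGCs, 0.000332% and 0.00697% in E15.5 mPGCs, and 0.0434% and 0.0110% in SGET mPGCLCs. The joint arm of Mir486-5p and Mir3107-5p, left out here, had 248 reads in E12.5 replicate 2, 304 in E13.5 replicate 2 and at most 22 in the others. The 5 genes of smooth muscle and mesenchyme, led among the arms counted by Mir143-3p and Mir214-3p, made up 0.104% and 0.0574% in E12.5 mPGCs, 0.0318% and 0.158% in E13.5 mPGCs, 0.159% and 0.348% in E15.5 mPGCs, and 0.304% and 0.409% in SGET mPGCLCs. Left out of these was the joint 3p arm of Mir199a-1, Mir199a-2 and Mir199b, which had more reads than Mir214-3p in every library, with 670 and 1781 in E12.5, 1331 and 9856 in E13.5, 735 and 4103 in E15.5 and 3908 and 6108 in SGET libraries. No arm counted in the last 3 lists was called in any comparison, out of 3, 2 and 6 tested. With all reads as the library size, 0%, 17.6%, 3.27% and 4.29% of all arms were lower in the 4 comparisons in the order of the report. Those called higher were 0%, 0%, 1.84% and 2.04%. With so few arms tested, a count of 0 cannot be weighed against these shares. Which cells the reads of these markers came from was not determined. The part of other cells in the differences of the cluster was not tested.

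The arms most like the cluster were sought among 258 arms outside it with a mean of at least 100 reads per 1e6 miRNA reads. Over the 8 libraries, the Pearson r of log2 levels with the cluster sum was highest for Mir200c-3p (0.981), an arm of an epithelial miRNA family. Next came a joint arm of Mir466 genes (0.955), a joint arm of Mir669a genes (0.954), Mir467e-5p (0.947) and the joint arm of Mir218-1 and Mir218-2 (0.947). These values describe 8 points in 4 groups and carry no test. Mir200c-3p made up 0.348% and 0.235% of miRNA reads in E12.5 mPGCs, 0.117% and 0.0791% in E13.5 mPGCs, 0.0385% and 0.0177% in E15.5 mPGCs, and 0.811% and 1.03% in SGET mPGCLCs, in the same order of groups as the cluster and over a wider range. It rose by 3.51 on the log2 scale from E13.5 mPGCs to SGET mPGCLCs (standard error 0.82, edgeR adjusted p = 0.008), a call that was lost without either E13.5 replicate (3.52 and 3.50) or without SGET replicate 2 (2.94). From E13.5 to E15.5 it fell by 4.83 on the log2 scale (standard error 0.87, edgeR adjusted p = 0.000662), with -5.65 without E15.5 replicate 1, and was not called with miRNA reads as the library size.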

How the data were processed

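The libraries were grouped as E12.5, E13.5 or E15.5 male mPGCs or as SGET D6 mPGCLCs, 2 each. Libraries were made with a NextFlex small RNA kit. The authors used cutadapt 3.2 to remove adapters together with their random bases and STAR 2.5.3a to map to GRCm38, and deposited a raw count per sequence of 15 to 43 nt that was not normalized. A read with several places in the genome was given 1 of them at random by the authors, which has no effect here because each sequence was counted by its own match. Instruments were not assigned to libraries in the sources used here, so no sequencing batch could be separated.

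Sequences of 20 to 24 nt were matched to GENCODE M21 miRNA transcripts using scipy 1.17.1, pandas 2.3.3 and numpy 2.4.6 under Python 3.11.15, and figures were drawn with matplotlib 3.10.9. The middle of a match, before or after the middle of the transcript, set the arm. The test of arms used edgeR 4.0.16 under R 4.3.3 (filterByExpr, quasi-likelihood test, 4 groups in a single fit, file total as library size). The procedure was tested on simulated data. It recovered most changes at a low dispersion but almost none at the dispersion estimated for each arm. A count of 0 is therefore no sign that levels were equal. The changed arms were drawn from all 489, so recovery was not measured for the cluster arms alone. From E12.5 to E13.5 mPGCs the median standard error was 0.69 over the cluster arms and 2.84 over all arms. Totals, and so depth, ran from 7447873 to 26552524 reads.

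Named were both arms of each member, the 5 arms outside the cluster most correlated with its sum (log2 of reads per 1e6 miRNA reads plus 1), and the 2 leading arms of each other list (Mir302, Mir367, the Mir17 family, let-7, blood, vessel, smooth muscle and mesenchyme, gonadal soma). Mir20a-5p and both Mir202 arms belong to those leading arms. Members and lists were chosen with earlier results of these data known.

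Alternatives were miRNA reads as library size, TMM, DESeq2 1.42.0, no filter, a replicate block, each library left out in turn, sequences of several genes left out, 18 to 26 nt, the last 2 bases free to differ and, chosen after seeing the data, Mir292 left out. Reads with other mismatches were left out because they cannot be assigned to an arm with certainty.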

Additional observations from a re-analysis of the deposited data

Results flagged for a closer look

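Reads outside the counted lengths also lay on the sense strand of the members, above a floor of 3 reads. Reads of 15 to 19 nt numbered 1295 and 2531 in E12.5 mPGCs, 1345 and 1660 in E13.5 mPGCs, 117 and 78 in E15.5 mPGCs, and 4333 and 6932 in SGET mPGCLCs. Per 100 cluster reads these were 0.447 and 0.305, 0.352 and 0.186, 0.272 and 0.121, and 0.736 and 0.798 in the same order, highest in both SGET libraries. Reads of 25 to 43 nt numbered 1056 and 3232 in E12.5 mPGCs, 1371 and 3893 in E13.5 mPGCs, 101 and 48 in E15.5 mPGCs, and 650 and 786 in SGET mPGCLCs. Per 100 cluster reads these were 0.364 and 0.389, 0.359 and 0.436, 0.235 and 0.0743, and 0.110 and 0.0905, highest in E12.5 mPGCs and E13.5. Differences between the groups in these reads were not tested.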

How the results depend on the processing

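The order of the groups in the part of miRNA reads taken by the cluster, and the direction of each ratio between groups, held under every alternative run for them. These included other ways of counting reads and libraries left out. Calls of single arms depended on the library size. The cause was not tested for any of the changes below. From E13.5 to E15.5, 12 cluster arms were called lower, against 0 with miRNA reads as library size, 0 with TMM and 0 with DESeq2. From E13.5 to SGET mPGCLCs, 0 were called higher, against 3, 1 and 0, and 1 with the replicate block.

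Arms called higher over all 489 were 4, 3, 7 and 2 from E12.5 to E13.5 with miRNA reads, TMM, DESeq2 and the replicate block, and 1 was lower with DESeq2. From E13.5 to E15.5, 1, 1 and 12 were higher and 0, 0 and 3 lower with the first 3 of these. From E12.5 to SGET mPGCLCs, 14 were higher with miRNA reads, 34 with DESeq2 and 18 with the block, and 40, 43, 65 and 26 were lower with miRNA reads, TMM, DESeq2 and the block. From E13.5 to SGET mPGCLCs, 18, 25 and 18 were higher with miRNA reads, DESeq2 and the block, and 45, 47 and 73 lower with miRNA reads, TMM and DESeq2. With a library left out, a lone library is taken to vary like the other groups. The counts then ran from 0 to 2 lower from E12.5 to E13.5, 0 to 2 higher and 57 to 84 lower from E13.5 to E15.5, 4 to 15 higher and 9 to 22 lower from E12.5 to SGET mPGCLCs, and 5 to 15 higher and 14 to 24 lower from E13.5 to SGET mPGCLCs.

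The replicate numbers were not taken to pair the samples. Over all arms the correlations of same-numbered deviations were 0.0303, 0.0909, 0.118 and -0.0647 for the 4 comparisons in the order of the report. Mir290a, however, made up more of the cluster reads in replicate 2 than in replicate 1 of each group. Whether libraries with the same number shared a sequencing run was not stated. With the block, 0 cluster arms were called from E12.5 to E13.5 and from E12.5 to SGET mPGCLCs, 12 from E13.5 to E15.5, where 92 of all arms were lower, and 31 of all arms were lower in SGET mPGCLCs than in E13.5 mPGCs.

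In DESeq2, log2 fold changes from E13.5 to E15.5 turned to 0.19 for Mir291b-5p, 0.25 for Mir293-3p and 0.22 for Mirlet7e-5p. Mir290a-5p from E13.5 to SGET mPGCLCs turned to -0.0898 with miRNA reads, -0.25 with TMM, -0.0355 with DESeq2 and -0.0422 with the last 2 bases free, and ran from -0.59 to 0.69 with a library left out. From E12.5 to SGET mPGCLCs it then ran from -1.20 to 0.24 and from E12.5 to E13.5 from -1.19 to 0.12, and Mir292-5p in the last from -0.46 to 0.00329. In the alternatives other than leaving out a library, 155 values of single arms kept their direction and stayed called or not called. With the direction kept, 42 lost a call and 12 gained one, while 7 were reversed in direction. The sizes of the changes were not compared in these counts.

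With Mir292 left out, an alternative chosen after seeing the data, the cluster held 2.08%, 1.501%, 0.0986% and 2.53% of all reads in the E12.5, E13.5, E15.5 and SGET groups, and 15%, 9.56%, 5.26% and 16.4% of miRNA reads. Its ratios were 0.637 (E13.5 to E12.5), 0.550 (E15.5 to E13.5) and 1.09 (SGET to E12.5). With the last 2 bases free it held 5.13% of all reads in E13.5 mPGCs and 0.383% in E15.5 mPGCs, and 31.4%, 23.7%, 15.4% and 37.8% of miRNA reads, with ratios of 0.754 (E13.5 to E12.5) and 1.60 (SGET to E13.5). Without sequences of several genes it held 34.3%, 25.6%, 16.5% and 39.1% of miRNA reads, with ratios of 0.747, 1.14 (SGET to E12.5) and 1.53 (SGET to E13.5). With 18 to 26 nt it held 27.6%, 20.2% and 34.98% in the E12.5, E13.5 and SGET groups, with SGET ratios of 1.27 and 1.73. The fewest cluster reads, 42996 and 64590, were in the E15.5 libraries. By total reads these were deeper than the shallowest library, E12.5 replicate 1 with 7447873 reads. Their miRNA reads, 301643 and 501867, were the fewest of the 8 libraries. Distinct sequences numbered 785269 in E15.5 replicate 1 and 365796 in replicate 2, although replicate 2 held more reads. By counting error alone, the depth of E12.5 replicate 1 sets an upper limit of 4.95e-05% of all reads on an arm with 0 reads.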
